A study of Mus musculus with 98 samples.

Results

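In the burn injury set, mouse spleen leukocytes were compared between 2 codes that the array titles carry, x (6 arrays) and c (5 arrays). These 11 arrays were chosen by their titles from the 34 spleen arrays of a series of 98, all of mice and all 1-colour Affymetrix arrays of total RNA. The labels give the tissue, the name of the injury and the letter E for both codes, and leave unexplained what x and c stand for. Whether the c arrays come from injured mice is thus not known. They state no strain, age, sex, burn size or time after injury, and nothing says that the arrays of a code came from separate animals. The spread that the p-values below rest on is thus that of the arrays of a code, and it may be purely technical. The running numbers in the titles of all x arrays come before those of all c arrays, so that order of handling and code cannot be told apart. Where a second injury is set beside the burn, it is the same pair of codes in the spleen arrays of the LPS infusion or trauma-hemorrhage set. LPS is lipopolysaccharide from the outer membrane of bacteria, and its set has 6 x and 6 c arrays. The trauma-hemorrhage set has 5 x and 6 c arrays. Titles of both sets also carry E. The labels describe the burn samples as leukocytes from spleen and the LPS and trauma-hemorrhage samples as spleen, so that material and injury cannot be told apart between sets. In the LPS titles a further tag follows the tissue, and their running numbers lie far from those of the other spleen arrays. Comparisons of burn with LPS cannot separate this from the injury.

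The spleen filters blood and houses lymphocytes. Its red pulp is lined by macrophages that engulf worn red cells and recycle their iron, and in mice it also makes red cells. Its white pulp holds B cell follicles and T cell zones. Injury is known to release adrenal glucocorticoids, hormones whose receptor is a transcription factor, and signals that activate macrophages and neutrophils.

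Intensities are quantile normalized over the 34 spleen arrays. Differences are x minus c in log2(intensity + 16), given with their standard error (SE), and fold changes on this scale understate those of dim genes. Adjusted p-values of genes and probe sets are limma's, over 22626 probe sets. A gene is read from its brightest probe set with 1 symbol, which gave 12393 genes. Of 113 genes that passed and are named below, 54 had further probe sets. In 32 of these a further probe set did not pass or had the other sign, which it had in 8 (Hspa4, Igfbp7, Klf9, Rora, Tesc, Tgm2, Zbtb16 and Zfp36l2). The fits were also run under 23 alternatives, 11 of which left out 1 burn array and the rest of which changed the scaling, the pseudocount, a filter or the model. At an adjusted p of 0.05, 11.8% of probe sets passed, 6.58% higher in x and 5.18% lower. Of the genes 1545 passed (12.5%), of which 825 were higher in x (6.66%) and 720 lower (5.81%). Every count of list members below is to be read beside these shares. The groups did not overlap in 1133 genes (9.14%), with x higher in 4.86% of all genes and lower in 4.28%. The 14 largest differences each way were named only among these genes. Their lack of overlap below was thus fixed by that choice. The median difference of all genes was -0.01. Median deposited intensities lay between 76.2 and 83.5, and 4.02% to 5.37% of an array's probe sets sat at the lowest value. Arrays correlated at 0.983 to 0.992 within x, at 0.981 to 0.987 within c, and at 0.963 to 0.984 between the codes. None of 5 quality measures passed an exact permutation test between the codes (two-sided, adjusted p from 0.368 to 0.998; the smallest p that all splits of the arrays allow is 0.00433).

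**Figure D1:**
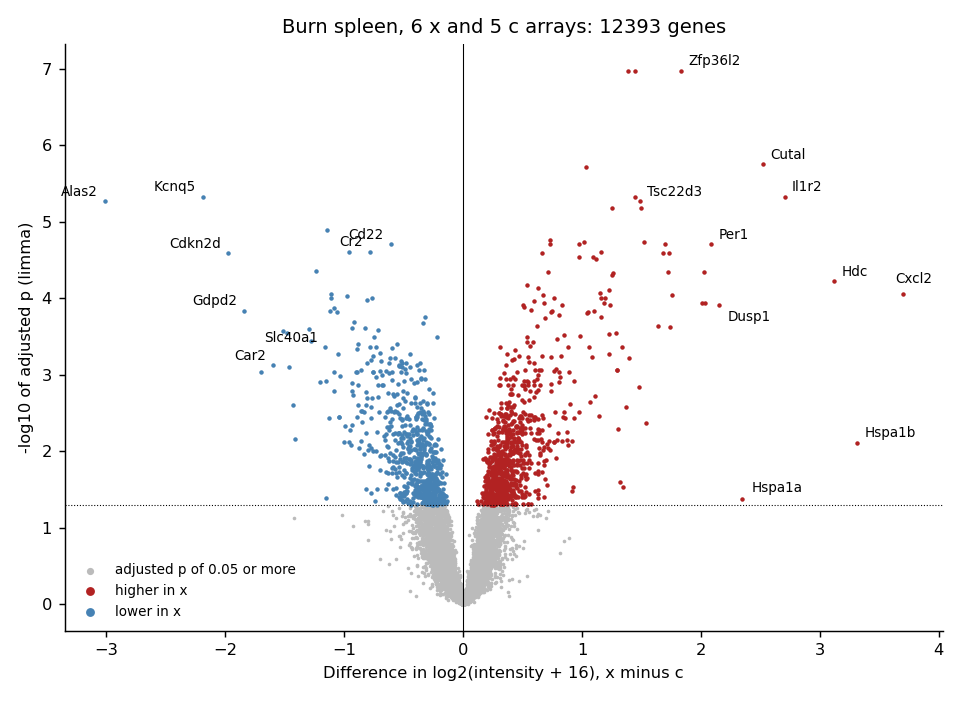
Each point is 1 of 12393 genes, placed by its difference x minus c in log2(intensity + 16) and by -log10 of limma's adjusted p. The dotted line marks an adjusted p of 0.05, with 825 genes higher in x (red) and 720 lower (blue) above it. Cxcl2 lies farthest to the right at 3.70 (with a pseudocount of 64, Hspa1b does) and Alas2 farthest to the left at -3.02, while Hspa1b and Hspa1a combine large differences with high p-values.

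Genes that glucocorticoids are known to induce were higher in x. Of 21 measured members of that list, 12 were higher and 1 was lower, with a median of 0.56, against 6.66% of all genes higher, 5.81% lower and a median of -0.01. Their summed intensity was 15610 to 16450 in x arrays and 9149 to 10150 in c arrays.

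Il1r2, a decoy receptor that binds interleukin 1 without signalling, had intensities of 489 to 681 (median 575) in x arrays and of 77.2, 61.8, 97.8, 51.8 and 96.9 in c arrays 1 to 5. The difference was 2.70 ± 0.15 (adjusted p = 4.7e-06). Every x array lay far above every c array. Per1, a clock repressor that glucocorticoids also induce, had 269.8 to 526 (median 358) in x arrays and 73.2, 61.1, 74.5, 80.2 and 75.5 in c arrays, a difference of 2.09 ± 0.15 (adjusted p = 1.96e-05). Fkbp5, a cochaperone that lowers the affinity of the glucocorticoid receptor for its hormone, had 381 to 845 (median 638) in x and 139.5, 110, 164, 121 and 141 in c. Its difference was 2.01 ± 0.19 (adjusted p = 0.000114), and its other probe set, at 0.20, did not pass. No x array of either gene came near the c arrays.

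Tsc22d3, which encodes the anti-inflammatory leucine zipper protein GILZ, had 1924 to 2290 (median 2050) in x arrays against 628, 612, 759.9, 813 and 849.8 in c arrays, with all 3 of its probe sets higher, by 1.48 to 2.06. Ddit4, an inhibitor of the growth kinase complex mTORC1, had 1460 to 1910 (median 1686) in x against 416, 399.6, 616, 613 and 547 in c, a difference of 1.70 ± 0.12 (adjusted p = 1.96e-05). Dusp1, a phosphatase that switches off MAP kinases, had 1472 to 2169 (median 1734) in x and 385, 221, 395, 431 and 628 in c, a difference of 2.15 ± 0.21 (adjusted p = 0.000121). The x and c arrays of these 3 genes did not overlap. Tgm2, Cdkn1a, Sgk1, Klf9, Zbtb16 and Nfkbia were higher by smaller amounts, from 0.21 to 0.85, and Zbtb16 lost its call in 13 of 23 alternatives. Further probe sets of Tgm2 (lowest -0.28), Klf9 (lowest -0.19), Cdkn1a (0.12), Zbtb16 (-0.01) and Nfkbia (0.04) did not pass. The metallothioneins Mt1 and Mt2, which bind zinc and are induced by glucocorticoids as well as by metals, differed by 0.11 ± 0.16 and 0.17 ± 0.20 and did not pass (adjusted p = 0.725 and 0.64). Cd163, the haemoglobin scavenger receptor of macrophages, was the one member lower in x, at -1.13 ± 0.19 (adjusted p = 0.00371). In these bulk samples fewer cells of a type and less RNA per cell cannot be told apart, here and below.

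Of 17 measured clock genes, 4 were higher in x (6.66% of all genes were), none was lower, and the median was 0.10. Besides Per1 these were Nfil3, a repressor of D-box genes (92.2 to 168 (median 133) in x, 43.0, 41.8, 37.8, 30.1 and 49.9 in c, difference 1.34 ± 0.16), the activator Rora (0.80 ± 0.11, with 0.18 and -0.09 at further probe sets that did not pass) and the repressor Nr1d2 (0.52 ± 0.08). All 4 separated the codes without overlap. The core activators Arntl (0.24 ± 0.08) and Clock (0.08 ± 0.06), and the output genes Dbp (-0.19 ± 0.11) and Nr1d1 (-0.02 ± 0.08), did not pass. The labels give no hour of sampling.

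**Figure D2:**
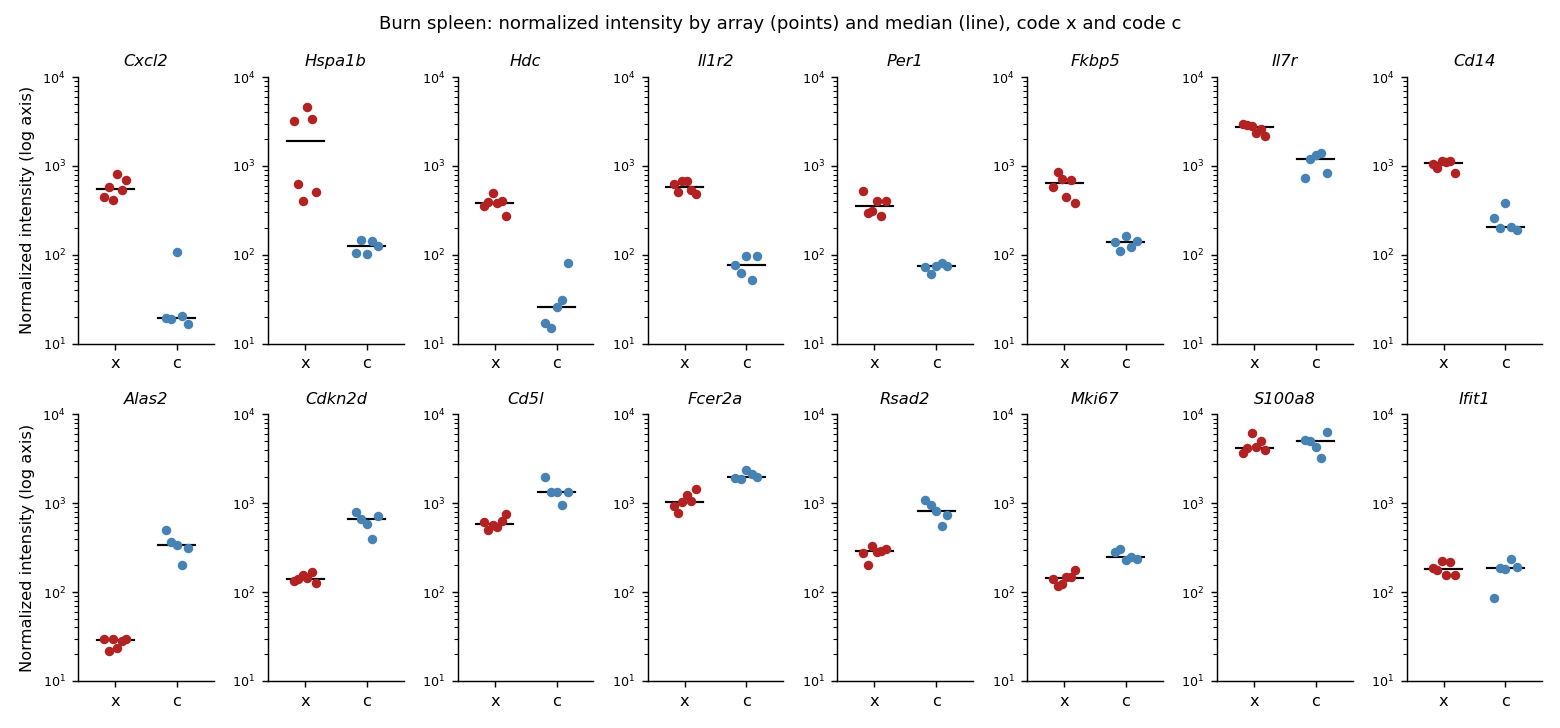
Normalized intensity (log axis, same range in every panel) of 16 genes in the 6 x arrays (red, left) and 5 c arrays (blue, right) of burn spleen; points are arrays and lines are medians. In the panels of Hspa1b, 3 x arrays lie between 3178 and 4555 and 3 between 404 and 629.5, while Cxcl2 has 1 c array at 106.5 and 4 between 16.4 and 20.4; S100a8 and Ifit1 overlap between the codes.

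Cxcl2, Hdc, Cd14, Clec4e and Acod1, which myeloid cells are known to express, are described together because of the size of their differences and are not a list. The list of monocyte and macrophage genes, given below, had 1 member higher in x and 5 lower. Cxcl2, a chemokine that draws neutrophils, had intensities of 414 to 819 (median 552) in x arrays and of 19.3, 19.1, 106, 20.4 and 16.4 in c arrays 1 to 5. Its difference, 3.70 ± 0.34, was the largest of all genes (adjusted p = 8.64e-05). Since 4 c arrays lie near the floor of 15.1, its size depends on the pseudocount: with 64 in place of 16 it was 2.71, below the 2.96 of Hspa1b. The c array 3 stood apart from the other 4 c arrays and was still below every x array. Without it the difference was 4.06, and the other fits that left out an array gave at least 3.58.

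The promoter of Cxcl2 is shown because the difference of this gene was the largest in the main fit. The motif searched here, on both strands, is the consensus of NF-kB, a factor activated by LPS and cytokines. The window is the 250 bases before the RefSeq start site, build GRCm38.p6, chr5:90903649-90903898 on the plus strand, 5′ to 3′. The capitals mark 2 overlapping matches, 1 on each strand, that together span bases 97 to 87 before the start.
Cxcl2: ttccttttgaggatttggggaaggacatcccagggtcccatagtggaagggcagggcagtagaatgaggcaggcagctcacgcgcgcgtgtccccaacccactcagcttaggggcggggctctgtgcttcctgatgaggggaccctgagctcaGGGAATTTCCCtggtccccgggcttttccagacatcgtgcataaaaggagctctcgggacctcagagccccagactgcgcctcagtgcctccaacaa
A match on either strand occurred in the same window of 7.251% of 32851 promoters, and it is a description of the letters and not evidence of binding.

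Hdc, which makes histamine from histidine, had 274 to 497 (median 387) in x arrays against 17.0, 15.1, 25.5, 30.6 and 81.4 in c arrays, a difference of 3.12 ± 0.27 (adjusted p = 5.92e-05). Under alternatives that left out no array this difference ran from 2.21 to 3.75. Hdc is also expressed by mast cells and basophils. A further 11 marker genes of mast cells, basophils and eosinophils were measured: none was higher in x, and Gata2 (-0.44 ± 0.08) and Il5ra (-0.38 ± 0.09) were lower. Cd14, the coreceptor that hands LPS to Toll-like receptor 4, had 822 to 1146 (median 1086) in x against 263, 201, 386, 204 and 192 in c (difference 2.03 ± 0.17, adjusted p = 4.51e-05). Clec4e, a C-type lectin receptor for microbial glycolipids and dead cells, was higher by 2.03 ± 0.19, with 278 to 429 (median 389.5) in x and 62.0, 50.2, 113, 62.1 and 115 in c. Acod1, which makes itaconate, had 138 to 241 (median 184) in x and 33.2, 46.5, 75.2, 36.2 and 29.0 in c, a difference of 1.74 ± 0.19. For Cd14 and Acod1 the highest c array was again array 3, and these 4 genes were named among those without overlap.

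The list of inflammatory cytokines and NF-kB targets did not move as a whole. Of its 32 measured members 8 were higher, 5 were lower and the median was 0.00. Beside Cxcl2, Il1r2 and Acod1, the higher ones were Socs3, a feedback inhibitor of cytokine receptors (832 to 2155 (median 1015) in x, 382, 376, 491, 451 and 507 in c, difference 1.37 ± 0.22), Birc3, Relb, Nfkbiz and Nfkbia (0.21 to 0.51). The lower ones were the cytokine Il18 (-0.86 ± 0.14), the costimulatory receptor Cd40 (-0.60 ± 0.10), the monocyte chemokine Ccl2 (-0.46 ± 0.09), the adhesion molecule Icam1 (-0.45 ± 0.13) and the chemokine Ccl4 (-0.31 ± 0.07). The call of Icam1 was lost in 13 of 23 alternatives. Tnf (-0.20 ± 0.08), Il6 (0.16 ± 0.07) and Il1b (0.69 ± 0.23) did not pass (adjusted p = 0.136, 0.149 and 0.0753). Cebpb, a transcription factor of myeloid cells and the acute phase, was higher by 1.64 ± 0.17 (524 to 813 (median 687) in x, 204, 160.5, 206, 168 and 335 in c) and was the only one of 17 acute phase genes that was, although its dimmer probe set differed by 0.08 and did not pass.

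Immediate early genes, which cells switch on within minutes of a stimulus, were partly higher. Of 27 measured, 8 were higher in x and 1 was lower (median 0.08), against 6.66% and 5.81% of all genes. After Dusp1 the largest was Rgs1, a brake on chemokine receptor signalling, with 222 to 493 (median 322) in x and 75.6, 72.7, 98.1, 93.6 and 81.1 in c (difference 1.76 ± 0.16). Fos, a subunit of AP-1, had 937 to 1348 (median 1221) in x and 507, 372, 431, 589.7 and 612 in c (difference 1.23 ± 0.14), and Dusp2, a phosphatase of ERK and p38, differed by 1.04 ± 0.10. None of these 3 overlapped between the codes. Jun (-0.09 ± 0.12), Egr1 (0.46 ± 0.14) and Myc (0.06 ± 0.09) did not pass, and Klf4, a factor of monocyte and endothelial identity, was lower by -0.77 ± 0.10.

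The inducible heat shock genes Hspa1b and Hspa1a were higher in x, with a wide spread among the x arrays. Hspa1b, a stress-induced chaperone, had 3178, 629.5, 404, 4555, 3354 and 509.9 in x arrays 1 to 6 and 104, 147, 102, 141 and 126 in c arrays. The difference was 3.32 ± 0.64 (adjusted p = 0.00771), and its 3 probe sets differed by 3.12 to 3.32. Hspa1a, its near-identical neighbour, had 898, 146, 105, 1464, 854 and 132 in x and 66.6, 64.8, 64.3, 55.9 and 50.9 in c, a difference of 2.35 ± 0.66 (adjusted p = 0.0425). For both genes x arrays 1, 4 and 5 were the highest, the other 3 x arrays still lay above all c arrays, and probe sets may read both genes. Hspa1a lost its call in 8 of the 11 fits that left out an array, among them every fit without a c array, and Hspa1b kept its call in all 11.

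Few other chaperones passed the threshold between the codes. The summed intensity of the heat shock list, the pair included, was 11940 to 22160 in x arrays and 12460 to 13960 in c arrays. Whether other members rose in the x arrays where the pair was highest was not tested. Of 20 measured cytosolic heat shock genes 3 were higher (6.66% of all genes were), none was lower and the median was 0.06. The third was Hspa4, a nucleotide exchange factor of Hsp70 (0.30 ± 0.04), of whose 2 other probe sets one was lower, at -0.93. Hsph1 (0.47 ± 0.38), Dnajb1 (0.25 ± 0.12), Hsp90aa1 (0.16 ± 0.11) and Hspa8 (-0.12 ± 0.06) did not pass (adjusted p = 0.491, 0.219, 0.398 and 0.217). Of 23 endoplasmic reticulum stress genes 3 were higher and 4 lower (6.66% and 5.81% of all genes were), led by Herpud1 (0.56 ± 0.10) and Sdf2l1 (-0.51 ± 0.11).

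Heat shock factor 1 binds inverted repeats of the letters GAA, searched here as GAANNTTC or TTCNNGAA, which read the same on both strands, and the promoters of the pair are shown because both genes moved together in the same 3 x arrays. Each is the 250 bases before the start in build GRCm38.p6 on the minus strand of chromosome 17, chr17:34959239-34959488 for Hspa1b and chr17:34972157-34972406 for Hspa1a, written 5′ to 3′ along the gene. The capitals mark the 1 match in each, at bases 104 to 97 before the start.
Hspa1b: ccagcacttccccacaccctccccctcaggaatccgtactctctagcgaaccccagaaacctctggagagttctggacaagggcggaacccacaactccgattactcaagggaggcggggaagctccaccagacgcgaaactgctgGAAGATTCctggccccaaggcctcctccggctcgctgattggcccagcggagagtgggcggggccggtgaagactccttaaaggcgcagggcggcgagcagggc
Hspa1a: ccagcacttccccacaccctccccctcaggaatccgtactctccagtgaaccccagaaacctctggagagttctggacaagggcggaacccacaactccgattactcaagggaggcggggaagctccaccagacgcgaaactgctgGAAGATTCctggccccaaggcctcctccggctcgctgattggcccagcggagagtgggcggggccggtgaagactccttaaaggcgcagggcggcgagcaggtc
The windows differ at 3 of 250 bases. Each also holds 1 NF-kB match, at bases 133 to 124. A heat shock element match occurred in 12.84% of 32851 promoters.

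Erythroid genes were lower in x, and Alas2 had the largest negative difference of all genes named by 1 symbol. Alas2, the first enzyme of heme synthesis in red cell precursors, had 21.6 to 29.8 (median 28.7) in x arrays and 503, 365, 339, 199.7 and 316 in c arrays, a difference of -3.02 ± 0.18 (adjusted p = 5.34e-06). Every x array was at or below 29.8 and every c array at or above 199.7. The x arrays lie near the floor, and the difference of Alas2 ran from -3.60 to -2.12 under alternatives that left out no array. Car2, a carbonic anhydrase of red cells, had 39.4 to 83.1 (median 60.8) in x and 305, 293, 198, 137 and 201 in c (difference -1.60 ± 0.20), and Hemgn, a nuclear protein of erythroid precursors, had 15.1 to 27.5 (median 21.7) in x and 85.1, 85.1, 69.8, 63.3 and 59.4 in c (difference -1.23 ± 0.10). Hbb-b2, an adult beta globin, had 167 to 535 (median 397) in x and 817, 748, 1098, 999.8 and 1328 in c. Its brighter probe set differed by -1.41 ± 0.27 and its other one by -2.98. These genes were named among those without overlap between the codes. The difference of Hemgn ran from -1.74 to -0.67 under alternatives that left out no array.

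Some probe sets that the platform's table gives several gene symbols, and that are therefore left unnamed, were lower by as much. Probe set 1428361_x_at had 402 to 1181 in x and 7243 to 9505 in c, a difference of -3.27 ± 0.23. Probe set 1452757_s_at differed by -3.24 ± 0.18. Probe set 1417714_x_at had 15.1 to 31.0 in x, with 4 of 6 arrays at the floor, and 236 to 648 in c (adjusted p = 5.34e-06), and no size is given for its difference. By contrast, probe set 1421811_at, which also has several symbols, was higher in x by 2.58 ± 0.15 (limma's adjusted p = 5.34e-06).

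Of 16 measured erythroid markers, 6 were lower in x (5.81% of all genes were), none was higher and the median was -0.22. The others were Rhag (-0.79 ± 0.09) and Ermap (-0.67 ± 0.10), both of the red cell membrane, and Klf1 (-0.57 ± 0.10), the master regulator of globin genes. Not past the threshold were the lineage factor Gata1 (-0.24 ± 0.08), the transferrin receptor Tfrc (0.15 ± 0.16) and the anion exchanger Slc4a1 (0.06 ± 0.10), whose 2 dimmer probe sets were both lower, the lower of them at -2.32. The alpha globin Hba-a1 did not pass either (-0.10 ± 0.08, adjusted p = 0.448). Among 26 genes of heme synthesis and iron handling, 7 were lower and none higher (median -0.09). They included the mitochondrial iron importer Slc25a37 (550.2 to 693 (median 657) in x, 1300, 1098, 1056, 1078 and 1026 in c, difference -0.77 ± 0.07), Cpox (-0.76 ± 0.09) and Fech (-0.69 ± 0.09), enzymes of the last steps of heme synthesis.

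The Alas2 promoter is shown because this gene fell most among named genes. GATA factors, which drive erythroid genes, bind sites searched here as AGATAA or TGATAA on both strands. The window is the 250 bases before the start, build GRCm38.p6, chrX:150547167-150547416 on the plus strand, and the capitals mark the 1 match, on the opposite strand, at bases 86 to 81 before the start.
Alas2: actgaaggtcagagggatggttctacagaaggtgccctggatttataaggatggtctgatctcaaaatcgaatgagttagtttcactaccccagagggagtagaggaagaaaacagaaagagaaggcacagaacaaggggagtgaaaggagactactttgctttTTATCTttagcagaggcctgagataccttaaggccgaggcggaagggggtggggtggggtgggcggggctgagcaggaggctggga
A GATA match occurred in 16.6% of 32851 promoters.

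Red pulp macrophage genes were lower in x almost throughout. Of 13 measured markers 10 were lower, none was higher and the median was -0.75. The summed intensity of the list was 3298 to 4462 in x arrays and 5503 to 10170 in c arrays. Slc40a1, ferroportin, which exports recycled iron, had 727 to 962 (median 906) in x and 2466, 1728, 1962, 1457 and 2258 in c (difference -1.16 ± 0.14, adjusted p = 0.000437). Cd5l, a secreted protein of tissue macrophages, had 506 to 762 (median 589.9) in x and 1982, 1352, 1337, 947 and 1335 in c (difference -1.16 ± 0.16, adjusted p = 0.00121). For both, no x array reached the lowest c array. The complement genes C1qa, C1qb and C1qc (-0.64 to -0.94), the mannose receptor Mrc1 (-0.89 ± 0.14), the adhesion molecule Vcam1 (-0.88 ± 0.18), the apoptotic cell receptor Axl (-0.69 ± 0.15) and the lineage factor Spic (-0.53 ± 0.14) were lower as well, of which C1qb lost its call in 11 of 23 alternatives and Spic in 8. In Vcam1 the lowest c array, array 4 at 955, lay just under the highest x array at 957. Heme oxygenase Hmox1 (-0.39 ± 0.12, adjusted p = 0.066) and the marginal zone genes Marco (-0.08 ± 0.08) and Siglec1 (-0.15 ± 0.08) did not pass.

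The wider list of monocyte and macrophage genes was divided: 5 of 12 were lower, Cd14 was higher and the median was -0.25. Lower were the chemokine receptor Ccr2 (282 to 440 (median 393) in x, 855, 713, 529, 578 and 1155 in c, difference -0.94 ± 0.19), Adgre1, which encodes F4/80 (-0.71 ± 0.10), and the growth factor receptor Csf1r (-0.54 ± 0.10), with Cd68 and Ctss by less, whose calls were lost in 11 and 6 of 23 alternatives. Without 1 array at a time the number lower ranged from 3 to 6.

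Neutrophil genes gave no such shift. Of 17 measured, 1 was lower, none was higher and the median was -0.09, with summed intensities of 11460 to 19440 in x arrays and 10750 to 21660 in c arrays. S100a8, a subunit of calprotectin, had 3713 to 6231 (median 4238) in x and 5105, 5060, 4352, 3199 and 6400 in c, and the codes overlapped (difference -0.06 ± 0.18, adjusted p = 0.875). The antimicrobial peptide gene Camp was lower by -1.16 ± 0.32 (adjusted p = 0.0412), but its arrays overlapped, at 290.1 to 789 (median 356) in x and 566 to 1518 in c, and the call ended in 8 of 11 fits that left out an array.

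**Figure D3:**
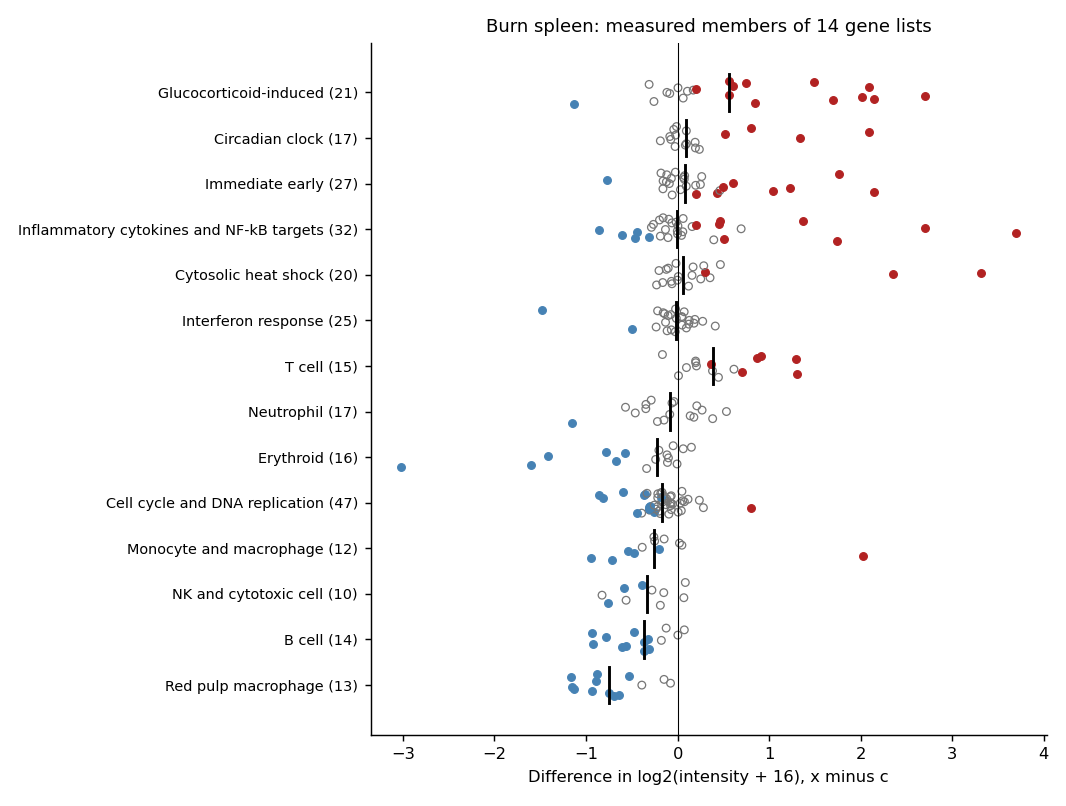
Each point is a measured member of 1 of 14 gene lists (number measured in brackets), placed by its difference x minus c in log2(intensity + 16). Filled points passed an adjusted p of 0.05 (red higher in x, blue lower), open points did not, and black bars are list medians, which run from 0.56 for glucocorticoid-induced genes to -0.75 for red pulp macrophage genes.

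Lymphocyte markers split by lineage. B cell genes were lower in x: 10 of 14 measured were lower, none was higher and the median was -0.37, with summed intensities of 18430 to 21260 in x and 25200 to 27760 in c. T cell genes were higher: 6 of 15 measured were higher, none was lower and the median was 0.38, with sums of 9410 to 11370 in x and 4902 to 7932 in c.

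Several of the lowered B cell genes encode surface receptors. Fcer2a, the low-affinity receptor for IgE, had 785 to 1458 (median 1037) in x and 1904, 1896, 2381, 2111 and 1962 in c (difference -0.94 ± 0.14, adjusted p = 0.00161). Cr2, the complement receptor that lowers the threshold of B cell activation, had 809 to 1005 (median 952) in x and 1683, 1518, 1724, 1561 and 1638 in c (difference -0.79 ± 0.06, adjusted p = 2.45e-05). Cd22, an inhibitory coreceptor, had 1447 to 1636 (median 1547) in x and 2371, 2192, 2357, 2462 and 2390 in c (difference -0.61 ± 0.04, adjusted p = 1.96e-05). The codes did not overlap in these 3 genes. A further probe set of Fcer2a, at -0.19, and another of Cd22, at -0.36, did not pass. Cd55, a complement inhibitor (-0.92 ± 0.10), Ms4a1, which encodes CD20 (-0.47 ± 0.08), and Cd79b, a signalling chain of the antigen receptor (-0.33 ± 0.04), were also lower, while Cd79a (-0.18 ± 0.05, adjusted p = 0.0516) and the lineage factors Ebf1 (0.00 ± 0.11) and Pax5 (0.07 ± 0.15) did not pass. For Ms4a1 a further probe set, at -0.23, did not pass. Cd180, a Toll-like receptor homologue of B cells outside this list, was lower by -1.46 ± 0.19, with 188 to 429.7 (median 351) in x and 991, 1045, 815, 882 and 915 in c.

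In the T cell list, Il7r, the survival receptor for interleukin 7, had 2182 to 2941 (median 2728) in x and 734, 1187, 1340, 1390 and 822 in c (difference 1.29 ± 0.17, adjusted p = 0.000865). Cd28, the main costimulatory receptor, had 615 to 883 (median 759) in x and 161, 337, 427, 405 and 222 in c (difference 1.30 ± 0.23, adjusted p = 0.00506). In both genes c arrays 1 and 5 were the lowest. The adaptor Trat1 (0.91 ± 0.24), the transcription factor Lef1 (0.87 ± 0.16), the receptor chain Cd3d (0.70 ± 0.14) and the coreceptor Cd6 (0.37 ± 0.08) were higher too, and Trat1 lost its call in 8 of 23 alternatives. Cd4 (0.10 ± 0.09) and Cd8a (0.20 ± 0.11) did not pass (adjusted p = 0.56 and 0.263). Cxcr4, a homing receptor of many leukocytes, was higher by 1.39 ± 0.17, with 355 to 515 (median 459) in x and 124, 114, 158, 187 and 239 in c. Of 10 natural killer cell genes 3 were lower (5.81% of all genes were), and the list median was -0.34. They were the factor Eomes (-0.76 ± 0.10), the receptor Ncr1 (-0.59 ± 0.13) and the granule protein Nkg7 (-0.39 ± 0.07). Irf4, a factor of activated B and plasma cells, was lower (-0.57 ± 0.11, with -0.06 at a further probe set that did not pass) and Prdm1, which drives plasma cell differentiation, was higher (0.42 ± 0.08). Of 18 chemokines and homing receptors 1 was higher, Cxcr4, and 4 were lower (2 to 4 without 1 array), against 6.66% and 5.81% of all genes. The lower ones included the lymphotoxins Ltb (-0.51 ± 0.07) and Lta (-0.52 ± 0.14), which organize white pulp. Lta lost its call in 6 of 11 fits that left out an array.

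Proliferation genes were lower. Of 47 measured cell cycle and DNA replication genes 11 were lower (5.81% of all genes were), 1 was higher and the median was -0.17. Mki67, the proliferation marker, had 119 to 176 (median 144) in x and 284, 308, 229.9, 246 and 238 in c (difference -0.81 ± 0.10, adjusted p = 0.000704). Rrm2, a subunit of ribonucleotide reductase, had 188 to 320.2 (median 251) in x and 509.7, 509.6, 446, 478 and 405 in c (difference -0.86 ± 0.11), and Uhrf1, which maintains DNA methylation, was lower by -0.60 ± 0.08. No x array of these 3 genes reached a c array. A further probe set of Uhrf1, at -0.14, did not pass. Of the further probe sets of Rrm2, the lower one passed, at -0.56, and the other, at -0.21, did not. Cdt1, which licenses replication origins, was higher instead, by 0.81 ± 0.08. The number lower was 7 without x array 5 or without c array 2, and 5 when all spleen groups shared 1 fit. Cdkn2d, an inhibitor of the cyclin D kinases that the list does not hold, had 126 to 168 (median 142) in x and 789.7, 664, 578, 396 and 719 in c, a difference of -1.98 ± 0.15 (adjusted p = 2.55e-05).

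Interferon-induced genes hardly differed. Of 25 measured, limma called 2 lower and 0 higher (4 were lower and 1 higher at an unadjusted p under 0.05), and the median was -0.02. Ifit1, an antiviral RNA-binding protein, had 157 to 226 (median 183) in x and 86.7, 186, 183, 238 and 191 in c, with overlap (difference 0.12 ± 0.20, adjusted p = 0.761). Rsad2, viperin, an antiviral enzyme, was an exception, with 202 to 331 (median 288) in x and 1082, 947, 819, 562 and 734 in c (difference -1.49 ± 0.16, adjusted p = 0.000288), and all x arrays lay below all c arrays. Cxcl9, a chemokine for activated T cells, was lower by -0.50 ± 0.13 with overlapping arrays and lost its call in 8 of 23 alternatives.

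Several of the genes with the largest differences belong to none of the lists. Cutal was at the floor of 15.1 in all 5 c arrays and had 124 to 235 (median 159.9) in x, which makes it at least 5.75-fold higher (adjusted p = 1.77e-06). Zfp36l2, which binds and destabilizes mRNAs, had 2981 to 3439 (median 3052) in x and 758, 938, 916, 918 and 819 in c (difference 1.84 ± 0.06, adjusted p = 1.05e-07), although 1 of its 3 probe sets showed no difference (0.00). Among the lowered genes, Dock6 was at the floor in all 6 x arrays against 129.9, 136, 38.5, 69.3 and 87.1 in c, which makes it at least 3.255-fold lower in x. Kcnq5, a potassium channel, had 15.1 to 35.5 (median 27.6) in x and 198, 180.4, 175, 148 and 194 in c (difference -2.19 ± 0.12). This difference ran from -2.75 to -1.41 under alternatives that left out no array. Gdpd2, a glycerophosphodiesterase (-1.84 ± 0.18), Sash1, a signalling adaptor (-1.43 ± 0.22), Hpgd, which degrades prostaglandins (-1.29 ± 0.14), and Tjp1, a tight junction scaffold (-1.28 ± 0.14), were lower and were named among genes without overlap. Tesc, a calcium-binding protein, was lower by -1.52 ± 0.16 at its brighter probe set and higher by 1.04 at its dimmer one, so its direction is uncertain.

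Of 22 apoptosis genes and p53 targets 4 were higher and 1 was lower (6.66% and 5.81% of all genes were), with a median of -0.02. Bcl2l11, which encodes the death-inducing protein BIM, was higher by 1.25 ± 0.10, with 1527 to 1980 (median 1800) in x and 759.9, 554, 826, 827 and 749 in c, while its dimmer probe set, at 0.11, did not pass. Cdkn1a, which arrests the cell cycle, was higher by 0.85 ± 0.14.

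The remaining lists were counted in the same way, beside 6.66% of all genes higher in x and 5.81% lower. Of 22 stroma and endothelium markers 6 were lower and none higher (median -0.19), among them Igfbp7 (-0.79 ± 0.16), Bgn (-0.48 ± 0.09) and Sparc (-0.40 ± 0.08), which encode matrix proteins. The further probe sets of Igfbp7, at 0.20 and -0.10, did not pass. Of 13 MHC class II genes 4 were lower (2 to 4 without 1 array) and 1 higher (0 to 1), with Ciita, the class II activator, at -0.38 ± 0.07. Of 23 glycolysis and hypoxia genes 4 were higher, among them the hypoxia factor Hif1a (0.60 ± 0.08) and Pdk1 (0.65 ± 0.09), which holds pyruvate out of mitochondria, and 2 were lower. Of 41 oxidative phosphorylation genes 1 was higher and 2 lower, both under the shares of all genes. Those counts ran from 0 to 3 and from 0 to 2 without 1 array. Of 24 cytosolic ribosomal protein genes 4 were higher, a number that fell to 1 in some fits without 1 array. Among 16 pancreas markers and 4 sex-linked genes limma called 0, with 0 and 0 at an unadjusted p under 0.05. Only 1 of 13 platelet genes, Thbs1, was higher (0.89 ± 0.12), a count near the share of all genes. Of 10 dendritic cell genes 2 were lower, and of 8 plasma cell genes 1 was higher and 2 lower. Of 18 cholesterol and fatty acid synthesis genes 3 were higher and 2 lower, and of 19 oxidative stress genes 2 and 1. Of 11 MHC class I genes 1 was higher, and of 9 adipocyte genes 1 was higher and 1 lower. Without 1 array the number of oxidative stress genes higher ran from 0 to 2.

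The response to the codes in burn spleen was then set against the same contrast in the other spleens, by testing the difference of the differences. Against LPS spleen, 976 of 12393 genes passed (7.88%), with 504 of them more positive in burn (4.07%) and 472 more negative (3.81%). Against trauma-hemorrhage spleen 2323 passed (18.7%), with 1400 more positive (11.3%) and 923 more negative (7.45%). Both tests use the same burn arrays, and the array sets differ in overall intensity, so only differences within a set were compared. The burn samples are labelled leukocytes and the others spleen, and the part this plays in the differences was not tested.

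Some glucocorticoid-induced genes differed more between the codes in burn than in LPS or trauma-hemorrhage spleen. Per1 differed by 2.09 ± 0.15 in burn, by -0.01 ± 0.10 in LPS and by 0.13 ± 0.06 in trauma-hemorrhage spleen. The burn difference exceeded that of LPS by 2.09 ± 0.18 (adjusted p = 1.39e-07) and that of trauma-hemorrhage by 1.96 ± 0.17 (adjusted p = 6.04e-08). Fkbp5 was likewise higher by 2.01 ± 0.19 in burn, against -0.03 ± 0.10 in LPS and 0.16 ± 0.26 in trauma-hemorrhage spleen, and the excess over LPS was 2.04 ± 0.22 (adjusted p = 2.57e-06). Il1r2 exceeded its LPS difference by 2.16 ± 0.24 (adjusted p = 3.91e-06) and did not differ detectably from that of trauma-hemorrhage, at 0.21 ± 0.36 (adjusted p = 0.756). Over the list of 21, 8 genes were more positive in burn than in LPS and 2 more negative, and 8 were more positive than in trauma-hemorrhage and 5 more negative. Members were also higher in x within the other sets. In LPS spleen 5 were higher and 1 lower (median 0.34), where 2.22% of all probe sets passed in either direction. In trauma-hemorrhage spleen 8 were higher and 3 lower (median 0.14), where 19.8% passed.

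The heat shock pair and Cutal were also greater in burn. Hspa1b exceeded its difference in LPS by 2.63 ± 0.65 (adjusted p = 0.0134) and in trauma-hemorrhage by 3.27 ± 0.68 (adjusted p = 0.00178), and Hspa1a by 2.30 ± 0.65 (adjusted p = 0.0333) and 2.41 ± 0.69 (adjusted p = 0.0185). The call of Hspa1a against LPS was lost in 4 of 11 fits that left out an array (without x array 1 or 5 or c array 1 or 5). For Cutal the fitted excess was 2.57 ± 0.13 (adjusted p = 7.88e-11) and 3.08 ± 0.30 (adjusted p = 3.27e-07). Its burn c arrays are at the floor, so the sizes rest on the pseudocount and ran from 1.54 to 3.48 and from 1.88 to 4.09 with pseudocounts of 64 and 1. The T cell gene Cd28 took the opposite sign in the other sets. It was higher by 1.30 ± 0.23 in burn, and differed by -0.57 ± 0.13 in LPS and by -0.98 ± 0.11 in trauma-hemorrhage spleen, which gave excesses of 1.87 ± 0.27 (adjusted p = 8.22e-05) and 2.28 ± 0.26 (adjusted p = 3.67e-06). Against trauma-hemorrhage, Ddit4 (2.21 ± 0.20 (adjusted p = 1.64e-07)) and Cxcr4 (2.14 ± 0.29 (adjusted p = 2e-05)) were among the 6 largest positive differences.

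Interferon-induced genes showed the reverse. In burn spleen 0 of the 25 were higher in x, against 19 in LPS spleen and 25 in trauma-hemorrhage spleen, where 2.22% and 19.8% of all probe sets passed in either direction. By the direct test 18 were more negative in burn than in LPS and 24 more negative than in trauma-hemorrhage. Cxcl10, a chemokine for activated T cells, differed by -0.07 ± 0.11 in burn, 2.92 ± 0.25 in LPS and 4.18 ± 0.17 in trauma-hemorrhage spleen. The burn difference minus that of LPS was -2.98 ± 0.28 (adjusted p = 4.48e-07), and minus that of trauma-hemorrhage -4.25 ± 0.21 (adjusted p = 4.47e-11). Rsad2 ran in opposite directions, -1.49 ± 0.16 in burn against 1.13 ± 0.23 in LPS and 3.59 ± 0.24 in trauma-hemorrhage spleen. Burn minus LPS was -2.61 ± 0.29 (adjusted p = 4.34e-06) and burn minus trauma-hemorrhage -5.07 ± 0.30 (adjusted p = 5.53e-10). Against trauma-hemorrhage, Cxcl9, the antiviral GTPase Mx1 and Ifit1 lay at -4.14, -4.14 and -4.36. Ccl4, which the interferon list does not hold, lay at -4.27. Tfec, a macrophage transcription factor, and Cxcl9 gave -2.25 ± 0.19 (adjusted p = 1.16e-07) and -2.88 ± 0.21 (adjusted p = 1.7e-08) against LPS. The burn x arrays of Tfec lie at or near the floor, and its value ran from -3.09 to -1.32 with pseudocounts of 1 and 64.

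Alas2 also set the spleens apart. It differed by -3.02 ± 0.18 in burn, 0.92 ± 0.46 in LPS and 0.57 ± 0.43 in trauma-hemorrhage spleen, which gave -3.94 ± 0.52 (adjusted p = 2.92e-05) for burn minus LPS and -3.59 ± 0.48 (adjusted p = 1.9e-05) for burn minus trauma-hemorrhage. Gdpd2 gave -2.54 ± 0.40 (adjusted p = 0.000285) and -2.50 ± 0.40 (adjusted p = 0.000154) in the same order. Some genes, by contrast, were higher in x in each spleen. Cxcl2 was higher by 3.70 ± 0.34 in burn, 3.60 ± 0.62 in LPS and 4.21 ± 0.31 in trauma-hemorrhage spleen, and neither difference from burn passed (adjusted p = 0.971 and 0.521). Cd14 was higher by 2.03 ± 0.17, 2.28 ± 0.18 and 3.40 ± 0.24 in the same order, and its excess in trauma-hemorrhage passed, at -1.37 ± 0.30 (adjusted p = 0.00285). Slc40a1 was lower in x in each spleen, at -1.16 ± 0.14, -1.85 ± 0.16 and -2.35 ± 0.22. Burn minus LPS did not pass for it, at 0.69 ± 0.21 (adjusted p = 0.0529), although it did in 11 of 23 alternatives, and burn minus trauma-hemorrhage did, at 1.19 ± 0.26 (adjusted p = 0.00292).

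**Figure D4:**
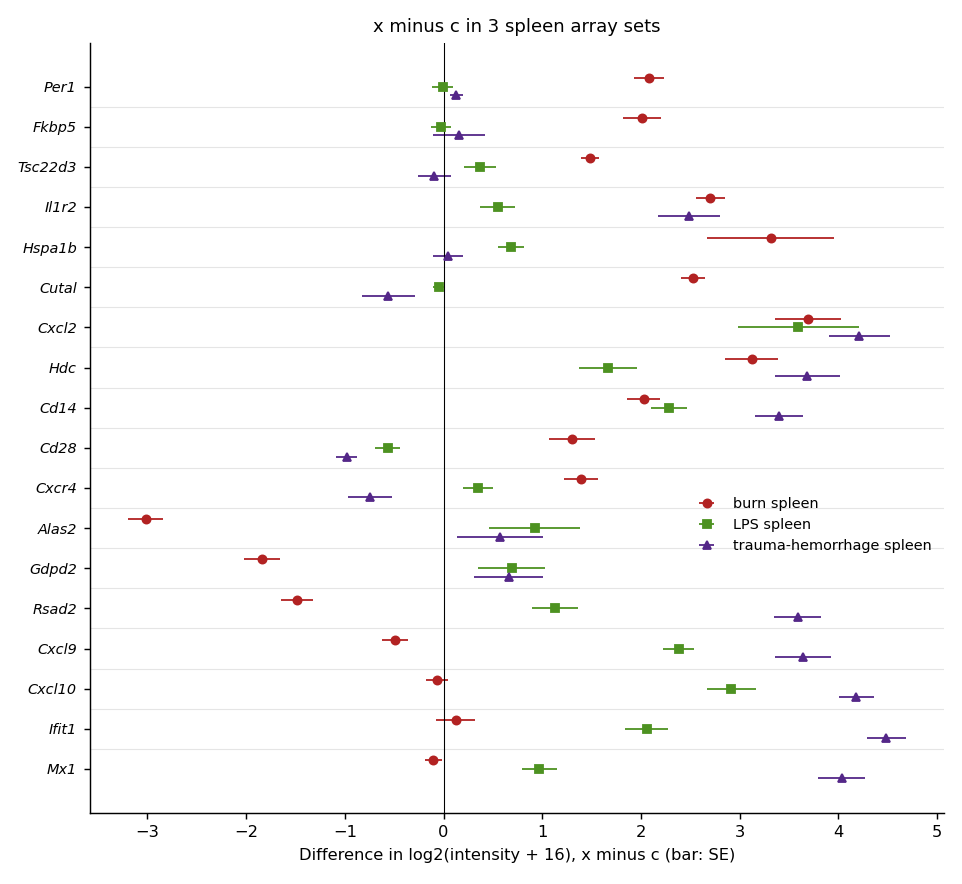
Difference x minus c in log2(intensity + 16) with its SE (bars) for 18 genes in burn (red circles, 6 x and 5 c arrays), LPS (green squares, 6 and 6) and trauma-hemorrhage spleen (purple triangles, 5 and 6). Per1, Fkbp5, Hspa1b and Cutal lie above 2 in burn and below 1 in the other sets, Cxcl2 lies to the right in each, and Cxcl10, Ifit1 and Mx1 lie near 0 in burn and to the right in the other sets.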

How the data were processed

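The authors deposited 1 linear intensity per probe set and array in a series matrix (per the file headers, which do not say how it was computed or scaled). Each array set has its own lowest value (9.68 in burn spleen), at which dim probe sets are held. The 64 manufacturer's control probe sets were left out, which kept 22626. The platform's gene table gave 1 symbol to 20380 of them, several to 691 and none to 1555. Intensities were quantile normalized over the 34 spleen arrays and taken as log2(value + 16), where the lowest value became 15.1. Arrays were grouped by title and numbered within a code in the order of their records.

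Differences were tested in R 4.3.3 with limma 3.58.1 (lmFit and eBayes with a trend), two-sided, with Benjamini-Hochberg adjustment over all probe sets at 0.05. The 11 burn arrays entered the main comparison, and 4 groups entered each comparison of responses. The steps were tested on simulated data. Alternatives were other scalings, pseudocounts, filters and variances, an RNA quality covariate and leaving out each array. No array files were identical (0 pairs), and the number of arrays limits the precision.

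Genes were named by rule: the 14 largest differences each way among genes that passed without overlap, up to 4 passing members of a list by p, and the 6 largest each way in comparisons of responses; other members are given as the rest of their list. The arrays, gene lists and tests were chosen with earlier results of these data known, and the 4 promoters after their genes' values were seen. Promoters come from RefSeq, build GRCm38.p6, and match genes by symbol.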

Additional observations from a re-analysis of the deposited data

Results flagged for a closer look

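In 13 of 288 groups checked (x or c arrays of the 144 genes the text names), 1 array stood apart from the rest of its code by Dixon's test, and chance alone gives about 1 in 20. Among x arrays, Fech was at 216.7 in array 5, with the other x arrays between 247.9 and 267.6. Slc25a37 was at 550.2 in x array 1, with the others between 643.6 and 693.2. Mx1 was at 86.9 in x array 2, with the others between 110.2 and 116.6. Tfec was at 23.8 in x array 5, with the others between the floor of 15.1 and 16.3. Among c arrays, Cxcl2 was at 106.5 in array 3, with the others between 16.4 and 20.4. Array 1 stood apart in 4 genes, with Ifit1 at 86.7 (others 183 to 238), Ltb at 1748 (others 2000 to 2107), Marco at 76.5 (others 62.8 to 66.4) and Slc25a37 at 1300 (others 1026 to 1098). Array 2 stood apart in Bcl2l11, at 553.8 (others 749 to 827), and Klf1, at 85.0 (others 69.3 to 72.5). Array 4 stood apart in Cd79b, at 3641 (others 3315 to 3401), and Nfkbia, at 5375 (others 4615 to 4781).

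By limma's test of the difference itself, the x minus c difference in burn spleen differed from that in LPS spleen in 74 of the 144 genes. Among those compared between the spleens above, it was more positive in burn for Hspa1b (2.63), Cutal (2.57), Hspa1a (2.30), Il1r2 (2.16), Per1 (2.09), Fkbp5 (2.04) and Cd28 (1.87). It was more negative for Alas2 (-3.94), Cxcl10 (-2.98), Cxcl9 (-2.88), Rsad2 (-2.61), Gdpd2 (-2.54) and Tfec (-2.25).

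Against trauma-hemorrhage spleen 89 of the 144 differed. Among those compared above, it was more positive for Hspa1b (3.27), Cutal (3.08), Hspa1a (2.41), Cd28 (2.28), Ddit4 (2.21), Cxcr4 (2.14), Per1 (1.96) and Slc40a1 (1.19). It was more negative for Rsad2 (-5.07), Ifit1 (-4.36), Ccl4 (-4.27), Cxcl10 (-4.25), Cxcl9 (-4.14), Mx1 (-4.14), Alas2 (-3.59), Gdpd2 (-2.50) and Cd14 (-1.37). The sizes of Cutal and Tfec rest on the pseudocount, since arrays of theirs lie at the floor. Alas2, dim in the burn x arrays, ran from -4.59 to -2.90 against LPS under alternatives that left out no array. Both sets of values rest on the same 11 burn arrays.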

How the results depend on the processing

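Across all probe sets, 2659 passed in burn spleen, 1584 against LPS spleen and 3824 against trauma-hemorrhage spleen. With 1 probe set per gene, which tests fewer features, 1629, 1039 and 2441 passed. Adding a minimum of 1 log2 left 152 in burn spleen, 96 of them higher and 56 lower. Leaving out 1 burn array at a time gave 1893 (without c array 1) to 3086 (without c array 4) in burn spleen, 1314 to 1893 against LPS and 3249 to 4213 against trauma-hemorrhage. The other alternatives (unnormalized values, normalization within a set or to a common median, pseudocounts of 1 and 64, a filter on dim probe sets, no trend, a robust variance, array weights, all spleen groups in 1 fit, and the beta-actin 3' to 5' ratio as covariate) stayed within 1.5 times of these counts, from 2222 to 3013 in burn spleen. Scaling to a common median raised the share of called probe sets that were higher in x to 65.32%, against 55.96%. No gene that passed reversed its direction under the alternatives run. Among genes that did not pass, leaving out 1 array gave values of both signs for S100a8 (-0.199 to 0.0498), Ifit1 (-0.0903 to 0.236), Pax5 (-0.0039 to 0.153), Nr1d1 (-0.0472 to 0.0274), Ebf1 (-0.0743 to 0.0562), Mt1 (-0.0091 to 0.179) and Mt2 (-0.0047 to 0.268). The sign also turned for S100a8 with a common median (0.0134), and with the covariate for Ifit1 (-0.0109) and Pax5 (-6e-04). Calls were lost most often by Xcr1 (14 of 23 alternatives), Icam1 and Zbtb16 (13 each), and Hspa1a, C1qb, Cd68, Txnrd1, Rpl37 and Uqcrb (11 each). Genes that did not pass did so most often in Cd79a (9), Egr1 (7), Hmox1 (5) and Il1b (4), and Slc40a1 did against LPS in 11; the cause was not tested. No paired analysis was possible because the titles give x and c arrays no shared numbers.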
